A study of Rattus norvegicus with 16 samples.

Results

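The comparison described here set the gustatory cortex of rats that had drunk an unfamiliar taste, 0.1% saccharin, against that of rats that had drunk water, the familiar taste, at 1 h after drinking. It rests on 8 of the 16 arrays of the series, chosen by their labels, with 4 saccharin arrays (C375, C377, C379 and C380) and 4 water arrays (C373, C374, C376 and C378). All animals, in both groups, were male Wistar Hola rats, 2 months old by the sample labels, that had been kept on restricted water for 3 days, so both groups drank after the same restriction. None of the groups was left without a drink, and a response that drinking evokes in both groups does not show in this comparison. One array was hybridised per rat (Affymetrix RaGene 1.1 ST, an array of short probes along the exons of each gene). Values are log2 levels per probe set, the group of probes for 1 transcript, from robust multi-chip averaging (RMA), and each difference is saccharin minus water on the log2 scale.

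The gustatory cortex is the part of the insular cortex that receives taste, and it is needed for remembering whether a taste is new or known to be safe. Neurons that fire strongly switch on immediate early genes, which need no new protein to start transcription. Their first wave encodes transcription factors such as Fos and Egr1 and synaptic proteins such as Arc, and it is driven largely by calcium and the MAP kinase ERK through the factors CREB and SRF. Phosphatases and inhibitors of the same kinase pathway are induced along with them and damp the signal. The question of the comparison is therefore whether such a programme, or any other group of genes, stood at another level after an unfamiliar than after a familiar taste.

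Markers of the tissue were present in both groups. Camk2a, a protein kinase of excitatory synapses, had a mean signal above that of 99.9% of the probe sets tested, and it stood at 11.69 to 11.78 in the water arrays and at 11.72 to 11.76 in the saccharin arrays. Array medians ran from 5.08 to 5.16 over the 8 arrays, and no pair of arrays held identical values. Water array C378 had the highest median, the narrowest spread of values (SD 2.16) and the lowest quality weight of the 16 arrays (0.572). Counts by direction are given with and without it.

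At 1 h no single gene passed the adjusted test between the tastes, which does not show that the levels were alike. Of 15209 probe sets tested (14497 genes), 0 were called at a Benjamini-Hochberg adjusted p under 0.05 in limma, which is 0% of those tested, and the smallest adjusted p was 0.767. At an unadjusted p under 0.05 there were 465 probe sets, or 3.06%, of which 192 (1.26%) were higher and 273 (1.79%) were lower after saccharin. For 228 probe sets (1.5%) the ranges of the tastes did not overlap, with 97 higher (0.638%) and 131 lower (0.861%) after saccharin. With the arrays centred on their medians this split was 64 higher and 182 lower. A difference above 0 was seen in 51.8% of the probe sets. Limma also called 0 probe sets for the interaction, the test of whether the difference between tastes at 1 h was itself different from that at 3 h, and 450 of its unadjusted p-values were under 0.05.

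The arrays were precise enough to bound the size of most differences. The median standard error of a difference was 0.0647 and the median 95% interval reached 0.136 to either side. For 14360 probe sets (94.4%) the whole 95% interval lay within a fold of 1.25 either way, and for 15128 (99.5%) within a fold of 1.5. The interval reached past 1.25-fold for the other 849, and for 0 did it lie wholly past it. These intervals are those of single probe sets, not adjusted for their number. In data simulated for this comparison over 15209 probe sets, the fit called 92 of 100 probe sets given a change of log2 0.5 and 99 of 100 given one of log2 1, with 14 false calls. Both sets were changed in the same simulated data, with noise drawn independently for each probe set and array. Many changes at once ease the adjusted threshold, and fewer or smaller changes were not simulated.

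Arrays of the same taste were no more alike than arrays of different tastes. Correlations between arrays averaged 0.9962 over 12 pairs of the same taste and 0.9964 over 16 pairs of different tastes. Taste accounted for 11.2% of the squared distance among the 8 arrays, where the mean over all 70 ways of splitting them 4 against 4 was 14.3% (exact permutation test, p = 1). Water array C378 had the lowest mean correlation with its own group, 0.9953.

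**Figure D1:**
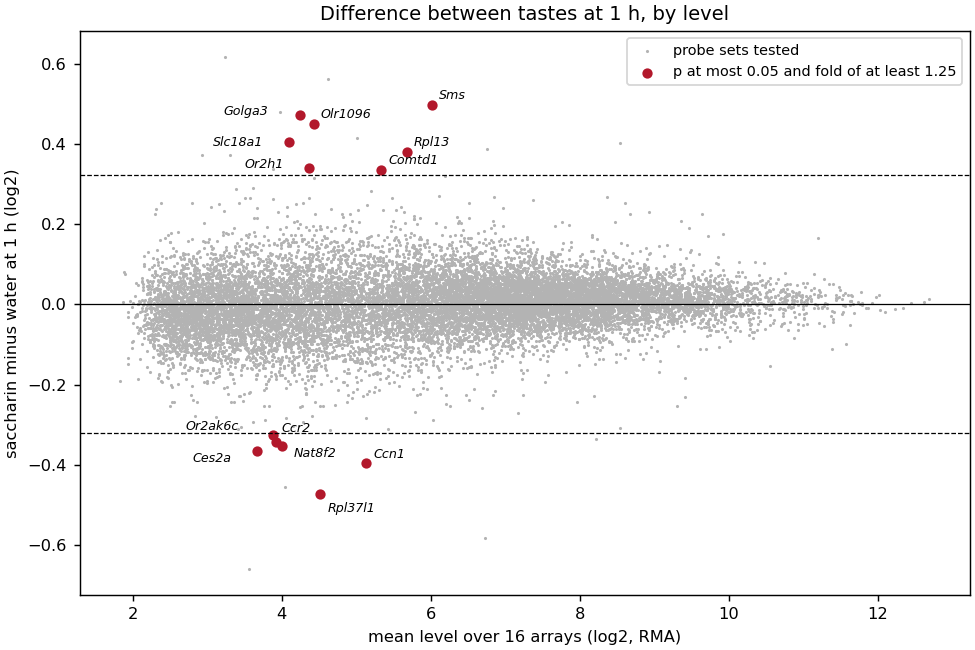
Difference between saccharin and water at 1 h (vertical axis, log2) against the mean level over 16 arrays (horizontal axis, log2 RMA), with 1 grey point for each of 15209 probe sets. Dashed lines mark a fold of 1.25 either way, and the 13 named red points, which also have an unadjusted p of at most 0.05, all lie below the median level of 6.15.

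The sign of the differences followed the level of the probe set and depended on 1 array. In the quartile of probe sets with the lowest levels 39.0% of the differences were above 0, and in the quartile with the highest levels 62.9% were. Without water array C378 these shares were 46.4% and 44.8%, and with the quantile normalization repeated they were 49.1% and 50.5%. Probe sets with an unadjusted p under 0.05 made up 5.21% of the lowest quartile and 0.868% of the highest. Counts of list members above 0 are therefore given below together with their value without C378.

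Among the immediate early transcription factors, 31 were measured, and 0 passed the adjusted test. Their median difference was 0.022, and 20 of 31 were above 0 (21 without C378). At an unadjusted p under 0.05 there was 1 of 31, or 3.23%, against 3.06% of all probe sets. Fos, a subunit of the transcription factor AP-1, stood at 6.55, 6.86, 6.81 and 6.62 in the water arrays and at 6.72, 6.91, 6.93 and 6.76 in the saccharin arrays. The groups overlapped, and the difference was 0.12 (standard error 0.15, 95% interval -0.20 to 0.45, limma adjusted p = 1.00). Egr1, a zinc finger factor activated through SRF, stood at 9.28, 9.61, 9.51 and 9.47 after water and at 9.38, 9.43, 9.71 and 9.71 after saccharin. Saccharin arrays C379 and C380 were the highest of the 8, C375 and C377 lay within the range of water, and the difference was 0.09 (95% interval -0.16 to 0.34).

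Nr4a1, an orphan nuclear receptor, and Junb, another subunit of AP-1, are shown here with the stretch before their start, as is Dusp1, a nuclear phosphatase of the MAP kinases, since these windows hold the core of the site that CREB binds. The full site is the cyclic AMP response element TGACGTCA, and its core, which lies within it on each strand, is TGACG (on the other strand CGTCA). In the 250 bases upstream of the start in RefSeq (GRCr8), the core was found on either strand in 15 of 21 immediate early transcription factors with a listed promoter and in 11 of 18 activity-regulated effectors, against 23.3% of 11946 measured genes with a listed promoter and 19.0% of all 27457 promoters. The windows lie at chr7:134259888-134260137 for Nr4a1, chr19:40080876-40081125 for Junb and chr10:17184603-17184852 for Dusp1, all on the plus strand, and capitals mark the core and, where present, the full element.
Nr4a1: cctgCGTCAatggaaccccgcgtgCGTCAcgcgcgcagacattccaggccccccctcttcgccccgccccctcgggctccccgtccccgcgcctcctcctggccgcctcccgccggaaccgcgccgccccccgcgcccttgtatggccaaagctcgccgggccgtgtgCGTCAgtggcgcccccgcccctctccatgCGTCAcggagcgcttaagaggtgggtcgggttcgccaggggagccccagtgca
Junb: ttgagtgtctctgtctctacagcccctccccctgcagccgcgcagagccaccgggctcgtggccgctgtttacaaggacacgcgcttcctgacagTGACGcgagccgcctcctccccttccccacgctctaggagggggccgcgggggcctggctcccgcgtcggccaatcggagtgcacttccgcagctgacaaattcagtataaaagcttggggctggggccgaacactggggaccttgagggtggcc
Dusp1: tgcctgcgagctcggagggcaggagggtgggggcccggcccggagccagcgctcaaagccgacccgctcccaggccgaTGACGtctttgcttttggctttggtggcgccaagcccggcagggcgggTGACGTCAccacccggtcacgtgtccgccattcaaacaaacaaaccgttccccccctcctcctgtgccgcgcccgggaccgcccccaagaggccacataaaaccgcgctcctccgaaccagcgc
Nr4a1 held 4 cores and Junb 1, while Dusp1 held the full element, 124 bases before its start, and 1 further core. The 15 transcription factors with a core had a median difference between tastes of 0.026, and the 2788 measured genes with a core had one of 0.0074, of which 2.55% had an unadjusted p under 0.05. The AP-1 site TGACTCA was found in 0 of these 21 and 18 windows and in 3.43% of the measured genes, and the CArG box, which SRF binds, in 4 of 21, 1 of 18 and 1.18%. The match of letters is a description of the window and not a measurement of CREB.

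Nr4a1 had levels of 8.84, 9.20, 9.03 and 8.97 after water and of 9.02, 9.17, 8.99 and 9.04 after saccharin. All saccharin arrays lay within the range of the water arrays, and the difference was 0.05 (standard error 0.23, 95% interval -0.43 to 0.53). Junb ran from 7.73 to 8.14 after water and from 7.70 to 8.10 after saccharin, with a difference of -0.04 (95% interval -0.34 to 0.27). Npas4, a factor that depends on neuronal calcium, differed by -0.02 (95% interval -0.46 to 0.42), and Nr4a2, a relative of Nr4a1, by -0.0048.

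The largest differences of this list were in Egr2 and Csrnp1. Egr2, a relative of Egr1, stood at 5.78, 6.12, 6.05 and 5.74 after water and at 5.95, 6.11, 6.25 and 6.22 after saccharin. Saccharin arrays C379 and C380 lay above every water array, C375 and C377 did not, and the difference was 0.21 (95% interval -0.16 to 0.59). Csrnp1, a nuclear protein that axin induces, had levels of 5.55, 5.69, 5.67 and 5.58 after water and of 5.34, 5.54, 5.44 and 5.58 after saccharin. Saccharin array C380 lay within the range of water, and the difference was -0.15 (95% interval -0.29 to -0.01, unadjusted p = 0.0362 and adjusted p = 1.00 in limma). Myc, a growth-related factor with a low signal here (2.93 to 3.17), was the member whose arrays did not overlap, lower after saccharin by -0.10 (95% interval -0.21 to 0.0047).

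Intervals of this list were wide where the 3 h arrays, which share the estimate of spread, varied. With all 16 arrays 22 of 31 intervals lay within 1.25-fold, and with only the 8 arrays of 1 h 29 did. With those 8 arrays the interval of Nr4a1 was -0.11 to 0.21, that of Fos -0.05 to 0.30 and that of Egr2 0.01 to 0.42 (unadjusted p = 0.0449 in limma), and 0 members were called.

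The spread among rats of one group was shared across these factors. Water array C373 was the lowest of its group for 17 of 31 and array C374 the highest for 15. Their mean levels over the 31 were 6.51 and 6.65, and the 4 saccharin arrays, at 6.59 to 6.68, lay partly within this range.

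**Figure D2:**
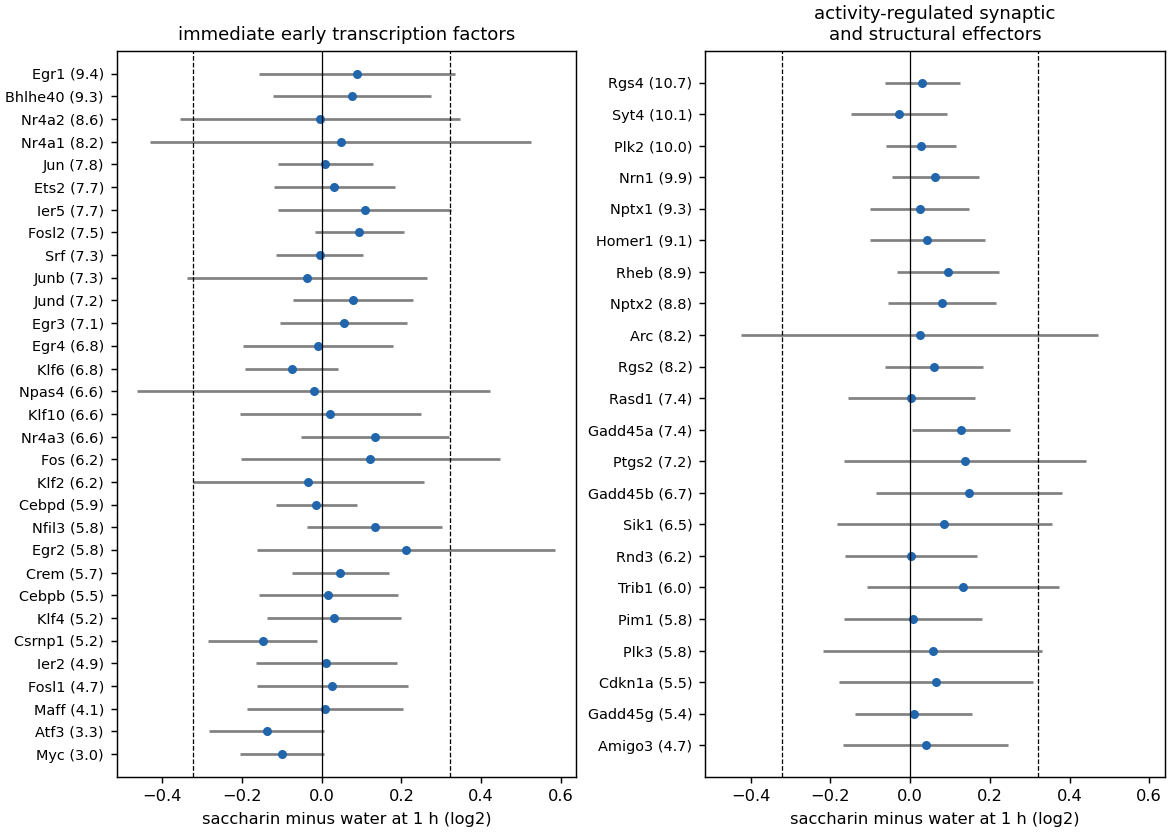
Differences between saccharin and water at 1 h (horizontal axes, log2; points) with 95% intervals from limma on 16 arrays (lines), for 31 immediate early transcription factors and 22 activity-regulated effectors, ordered by mean level (log2, in brackets). Dashed lines mark a fold of 1.25 either way. The interval reaches past it for 9 of 31 factors, among them Nr4a1, Npas4 and Egr2. It also does so for 6 of 22 effectors, among them Arc.

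Of the activity-regulated effectors, the proteins that act at synapses and in signalling once the first wave is switched on, 22 were measured and 21 had a difference above 0, with a median of 0.05. The count was 19 without C378, 18 with arrays centred on their median and 19 with the quantile normalization repeated. Over all probe sets 51.8% lay above 0, and 0 effectors were called. The interval lay inside a fold of 1.25 for 16 of 22 effectors (72.7%), against 94.4% of all probe sets. Arc, which removes AMPA receptors from synapses, stood at 8.63, 9.17, 9.03 and 9.09 after water and at 8.76, 8.98, 9.20 and 9.08 after saccharin. The ranges overlapped almost fully, with C373 lowest and C379 highest, and the difference was 0.02 (standard error 0.21, 95% interval -0.42 to 0.47, limma adjusted p = 1.00). With only the 8 arrays of 1 h its interval was -0.23 to 0.28.

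Gadd45a, a protein of DNA repair and demethylation, stood at 7.24, 7.27, 7.21 and 7.17 after water and at 7.27, 7.40, 7.35 and 7.38 after saccharin. The ranges touched at C374 and C375, and the difference was 0.13 (95% interval 0.0045 to 0.25, unadjusted p = 0.043 and adjusted p = 1.00 in limma). It was the 1 effector of 22 (4.55%, against 3.06% of all probe sets) with an unadjusted p under 0.05. The interval of Gadd45a lies inside a fold of 1.25. Its relative Gadd45b differed by 0.15 (95% interval -0.09 to 0.38). Rgs4, a brake on G protein signalling, Homer1, a scaffold of glutamate receptors, and Syt4, a vesicle protein, differed by 0.03, 0.04 and -0.03, each with an interval inside a fold of 1.25.

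Among the phosphatases and inhibitors of the MAP kinase pathway, 17 were measured and 13 were above 0 (10 without C378). At an unadjusted p under 0.05 there were 2 (11.8%, against 3.06% of all probe sets). Both were Sprouty genes, which encode inhibitors of growth factor signalling to ERK. Spry4 stood at 5.59, 5.73, 5.63 and 5.63 after water and at 5.86, 5.85, 5.93 and 5.88 after saccharin. Every saccharin array lay above every water array, and the difference was 0.23 (standard error 0.081, 95% interval 0.06 to 0.40, unadjusted p = 0.0105 and adjusted p = 1.00 in limma). It ranged from 0.21 to 0.26 when each array was left out in turn, and its unadjusted p in limma was 6.2e-04 with only the 8 arrays of 1 h. With those 8 arrays Spry4 was the 1 of 17 members with an unadjusted p under 0.05, so Spry1 did not pass. Spry1 stood at 5.46, 5.18, 5.35 and 5.21 after water and at 5.45, 5.53, 5.30 and 5.60 after saccharin, with overlapping groups and a difference of 0.17 (unadjusted p = 0.0359 in limma).

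The phosphatases of the same list lay closer together. Dusp6, a phosphatase of ERK, stood at 8.19, 8.21, 8.22 and 8.27 after water and at 8.28, 8.19, 8.23 and 8.36 after saccharin, a difference of 0.04 (95% interval -0.21 to 0.29). Dusp1, whose window is printed above, differed by 0.02 (95% interval -0.32 to 0.35), and Dusp2, a phosphatase of the nucleus, by -0.14 (95% interval -0.30 to 0.02). Upstream, all 24 measured kinases of the MAP kinase cascades had intervals inside a fold of 1.25, among them Map2k1, the kinase that activates ERK, at -0.03 (95% interval -0.12 to 0.06). For CREB, its relatives and coactivators the same held for 14 of 15.

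**Figure D3:**
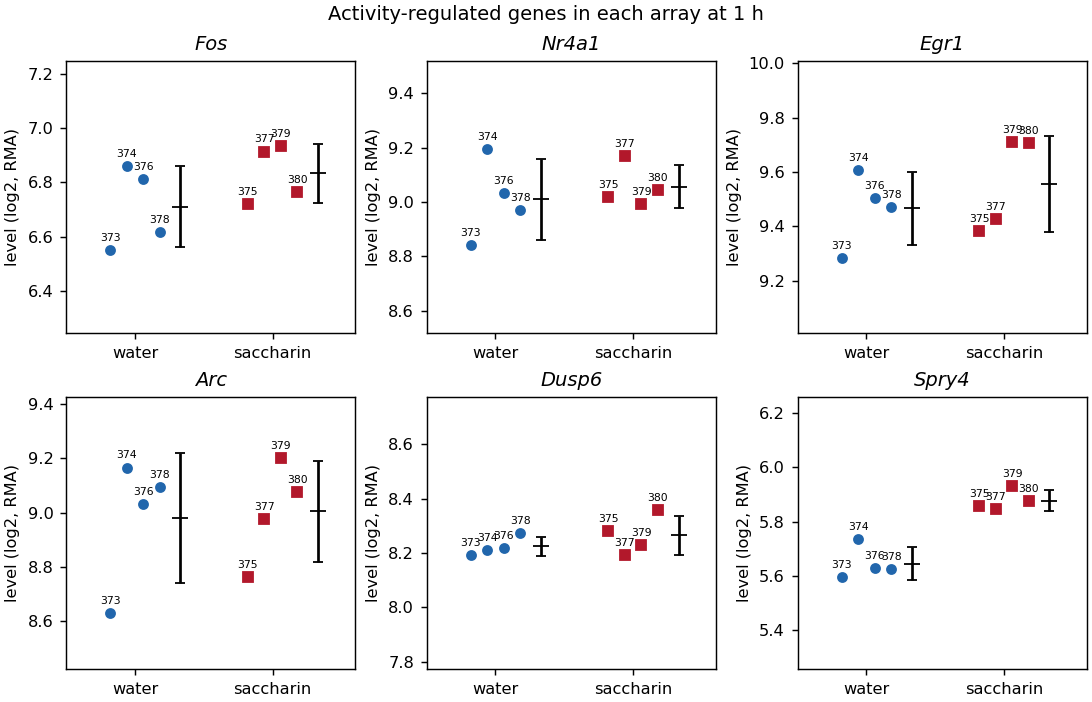
Log2 levels (RMA, vertical axes) of 6 activity-regulated genes in the 4 water arrays (circles) and the 4 saccharin arrays (squares) at 1 h, with array numbers and, beside them, the mean and SD of each group. The groups overlap for Fos, Nr4a1, Egr1, Arc and Dusp6 and do not for Spry4, where the saccharin arrays lie at 5.85 to 5.93.

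Secreted factors that neuronal activity regulates were measured for 15 genes, of which 7 were above 0 (4 without C378 and 4 without C379). Of the 15, 1 had an unadjusted p under 0.05, or 6.67%, against 3.06% of all probe sets. Bdnf, the brain-derived neurotrophic factor, differed by 0.06 (95% interval -0.11 to 0.24), and Scg2, a secretogranin of dense-core vesicles, also by 0.06 (95% interval -0.08 to 0.20). Ccn1, a matricellular protein induced like an immediate early gene, stood at 5.08 (C373), 6.0 (C374), 5.70 and 5.62 after water and at 5.07, 5.52, 5.16 and 5.07 after saccharin. Water array C373 lay as low as the saccharin arrays, and the difference was -0.40 (95% interval -0.70 to -0.09, unadjusted p = 0.0136 and adjusted p = 1.00 in limma). Without C374, the highest array, it was -0.26.

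Subunits of the ionotropic receptors were bounded closely. All 16 measured subunits of AMPA, NMDA and kainate receptors had 95% intervals inside a fold of 1.25, as did all 16 subunits of GABA-A receptors and all 35 sodium and calcium channel genes. The share was 77 of 83 for potassium channel genes and 6 of 7 for metabotropic glutamate receptors, which are coupled to G proteins, against 94.4% of all probe sets. Gria2, the subunit that sets the calcium permeability of AMPA receptors, differed by 0.02 (95% interval -0.10 to 0.15). Gabrb2, a subunit of GABA-A receptors, differed by 0.05 (95% interval -0.05 to 0.16). In the kainate receptor subunit Grik1 the arrays did not overlap, at 5.81 to 5.98 after water and 6.0 to 6.11 after saccharin, a difference of 0.12 (unadjusted p = 0.0871 in limma).

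Acetylcholine is released in the gustatory cortex when a taste is new, and 22 of its receptors and enzymes were measured. The interval lay inside a fold of 1.25 for 21 of them, 10 were above 0 (7 without C378), and 0 were called. Chrm1, the main muscarinic receptor of the cortex, differed by -0.06 (95% interval -0.18 to 0.05). Chrna10, a nicotinic subunit known from hair cells, was the member with an unadjusted p under 0.05 (4.55% of the list, against 3.06% of all probe sets). It stood at 3.61 to 3.78 after water and 3.80 to 3.86 after saccharin (difference 0.15, unadjusted p = 0.0096 in limma). Its arrays did not overlap.

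Receptors for dopamine, noradrenaline and serotonin were measured for 27 genes, of which 3 had an unadjusted p under 0.05 (11.1%, against 3.06% of all probe sets) and 0 were called. Adra2c, an inhibitory receptor for noradrenaline, stood at 6.90, 6.86, 6.96 and 6.91 after water and at 6.76, 6.88, 6.73 and 6.63 after saccharin. Saccharin array C377 lay within the range of water and the others below it, with a difference of -0.16 (95% interval -0.27 to -0.04, unadjusted p = 0.0103 in limma). Drd5, a dopamine receptor coupled to cyclic AMP, differed by 0.19 (unadjusted p = 0.0158), and Htr3b, a subunit of the serotonin-gated channel, by -0.16 (unadjusted p = 0.0162), where the arrays did not overlap.

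Of 13 genes for the synthesis and transport of monoamines, 3 had an unadjusted p under 0.05, which is 23.1% against 3.06% of all probe sets, and 0 were called. The median level of the list was low (4.24), and in the second lowest quartile by level, which holds it, the share was 4.21%. Slc18a1, a vesicular monoamine transporter, ran from 3.64 to 4.08 after water and from 3.90 to 4.57 after saccharin (difference 0.40, adjusted p = 1.00 in limma). At 3 h the difference of Slc18a1 was -0.35. Comtd1, a relative of the enzyme that methylates catecholamines, ran from 4.69 to 5.59 and from 5.34 to 5.71 (difference 0.34). Without water array C378, the lowest, the difference of Comtd1 was 0.18. Slc6a2, the noradrenaline transporter, differed by -0.16 (unadjusted p = 0.0377 in limma). Among 21 neuropeptide genes Cck, the peptide cholecystokinin of cortical interneurons, differed by -0.05. The 2 with an unadjusted p under 0.05 (9.52%, against 3.06% of all probe sets) were Nmb (-0.18) and Calcb (-0.11). They encode a bombesin-like peptide and a calcitonin gene-related peptide.

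All rats had been water restricted and had drunk, and genes of water balance and of the stress hormone response were measured in the same way. Of 16 genes of osmotic and water balance 12 were above 0 (12 without C378), with a median of 0.05. The list held 1 gene with an unadjusted p under 0.05, or 6.25%, against 3.06% of all probe sets. That gene was Aqp1, a water channel, at 5.13 to 5.53 after water and 5.13 to 5.23 after saccharin (difference -0.22, unadjusted p = 0.0261 in limma). Aqp4, the water channel of astrocyte endfeet, differed by 0.07 (95% interval -0.05 to 0.20). Of 16 glucocorticoid receptors and targets 13 were above 0 (13 without C378), with a median of 0.05 and 1 (6.25%) at an unadjusted p under 0.05. Mt2A, a metallothionein that binds zinc, stood at 9.82, 9.84, 9.98 and 9.81 after water and at 9.96, 10.03, 10.07 and 10.10 after saccharin. Water array C376 overlapped C375, and the difference was 0.18 (95% interval 0.05 to 0.30, unadjusted p = 0.00892 and adjusted p = 1.00 in limma). Dbp, an output gene of the circadian clock, differed by -0.17 (95% interval -0.38 to 0.04).

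Most genes of basic cell functions are highly expressed, and in the quartile of probe sets with the highest levels 98.3% of the intervals lay inside a fold of 1.25. Of the intervals inside a fold of 1.25 there were 44 of 44 among translation initiation factors, 43 of 44 among proteasome subunits, 77 of 78 among genes of the mitochondrial respiratory chain, 66 of 68 among mitochondrial ribosomal proteins and 13 of 13 among cytosolic heat shock genes. Hspa8, a chaperone, differed by 0.0041 (95% interval -0.08 to 0.09). The reference genes Gapdh and Actb differed by 0.01 and 9.4e-04, and all 11 reference genes lay inside a fold of 1.25. Of these, 10 were above 0, and 4 were without C378.

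Of 72 cytosolic ribosomal protein genes 23 were above 0 (17 without C378), their median was -0.02, and 66 of 72 intervals lay inside a fold of 1.25. An unadjusted p under 0.05 was seen for 3 of 72 (4.17%), against 3.06% of all probe sets. Rpl36, a protein of the large subunit, stood at 11.14, 11.04, 11.12 and 11.08 after water and at 11.25, 11.28, 11.30 and 11.21 after saccharin. Its arrays did not overlap, and the difference was 0.17 (unadjusted p = 0.0288 in limma). Rps23 and Rps12, of the small subunit, differed by -0.18 and -0.14 (unadjusted p = 0.013 and 0.024). Near-identical processed copies of ribosomal protein genes are common in rodent genomes, so a probe set of this family may hold signal of several loci.

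The list of endoplasmic reticulum chaperones, which also holds the stress factor Ddit3, had 17 genes measured. An interval inside a fold of 1.25 was found for 16, and 2 had an unadjusted p under 0.05. That is 11.8%, against 3.06% of all probe sets. Sdf2l1, a partner of the chaperone BiP, stood at 6.17 to 6.37 after water and 5.66 to 6.19 after saccharin, where C375 was the lowest (difference -0.25, unadjusted p = 0.0323 in limma). Ddit3, a transcription factor of the stress response, differed by 0.16 (unadjusted p = 0.0415). In polyamine metabolism all 15 genes lay inside a fold of 1.25, and Sat1, which acetylates polyamines, had arrays that did not overlap (difference 0.12, unadjusted p = 0.105). Among ephrins and their receptors, 2 of 18 had an unadjusted p under 0.05 (11.1%, against 3.06% of all probe sets), the receptor Ephb3 (0.15) and the ligand Efna1 (0.17), which both guide axons. Of 43 tripartite motif genes 16 were above 0 (20 without C378). An unadjusted p under 0.05 was found for 9.30%, against 3.06% of all probe sets, 1 with a higher and 3 with a lower level. The arrays did not overlap for 3 of 43 (6.98%, against 1.5% of all probe sets), Trim13, Trim32 and Trim8, which encode ubiquitin ligases, with differences of -0.18, -0.12 and -0.08. Trim8 was named after its values were seen.

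Further families, described across the whole table, gave no member that was called. Of 309 solute carrier genes 167 were above 0 (161 without C378) and 10 had an unadjusted p under 0.05, which is 3.24%. Of 148 zinc finger protein genes 85 were above 0 (73 without C378) and 8 had such a p, or 5.41%, against 3.06% of all probe sets. The shares inside a fold of 1.25 were 22 of 22 for phosphodiesterases of cyclic nucleotides, 84 of 86 for Ras-family small GTPases, 37 of 39 for ubiquitin-specific proteases, 25 of 26 for selenoproteins, peroxiredoxins and glutathione peroxidases, 24 of 26 for histone genes, 23 of 25 for collagen genes and 58 of 64 for cytochrome P450 genes. Clock genes lay inside it in 11 of 14, with 7 of 14 above 0 (6 without C378), and markers of the choroid plexus and ependyma in 7 of 8, with 2 of 8 above 0 (3 without C378).

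**Figure D4:**
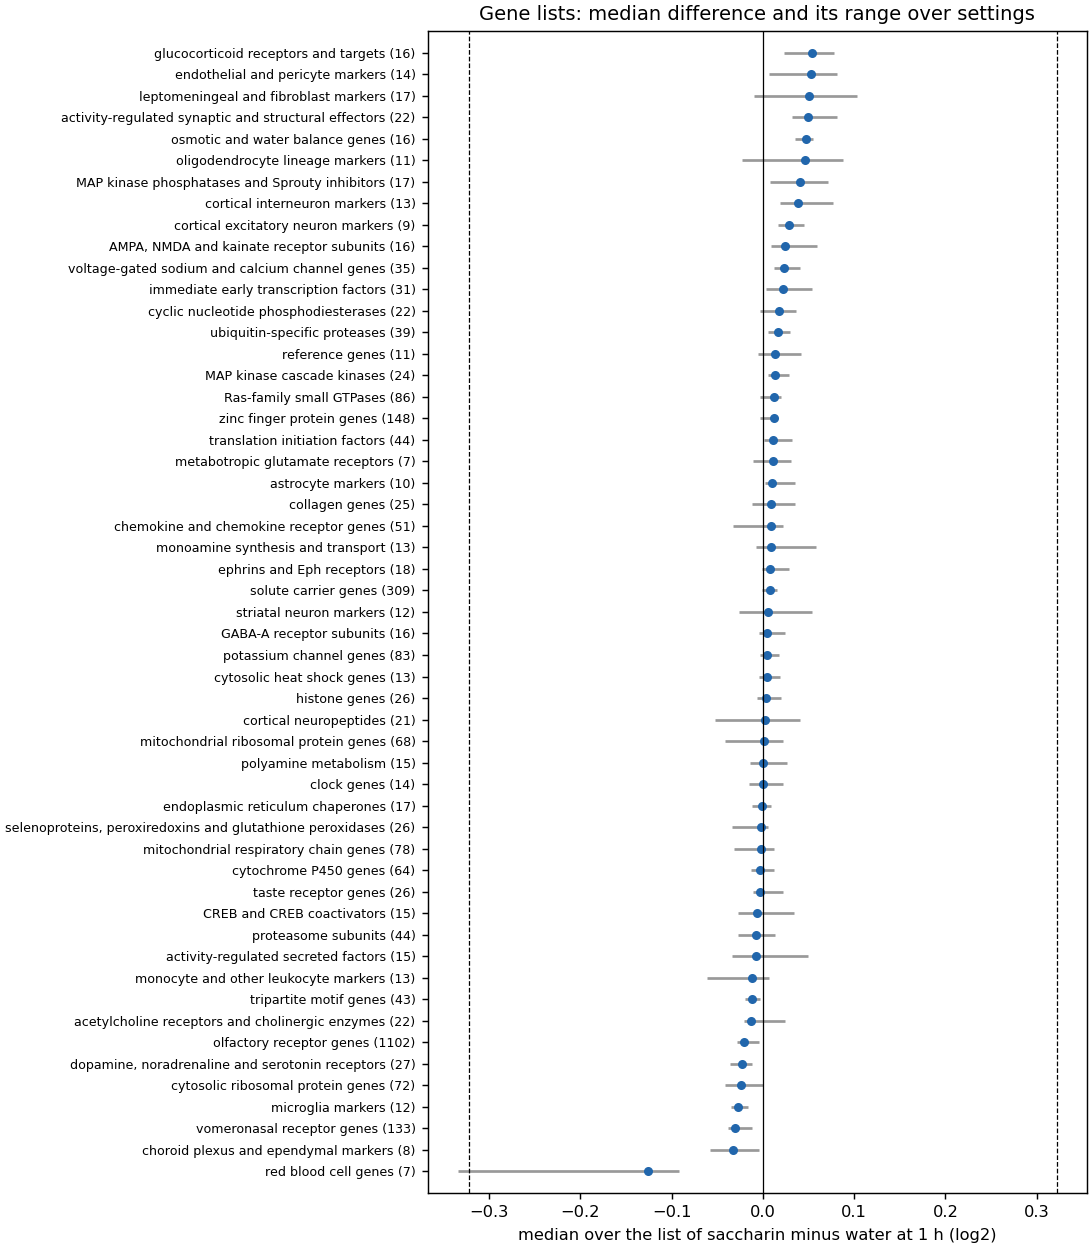
Median difference between saccharin and water at 1 h (horizontal axis, log2) of 53 gene lists, with the number of genes measured in brackets, and lines from the lowest to the highest median over the alternative settings that kept all members of a list. Dashed lines mark a fold of 1.25 either way. All medians lie between -0.13 and 0.05, and red blood cell genes have the lowest.

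The gene with the smallest p of all was Ccr2, the receptor by which monocytes follow the chemokine Ccl2. It stood at 4.24, 4.12, 4.11 and 4.13 after water and at 3.62, 3.95, 3.77 and 3.88 after saccharin. Every saccharin array lay below every water array, and the difference was -0.34 (standard error 0.065, 95% interval -0.48 to -0.21, unadjusted p = 5.0e-05 and adjusted p = 0.767 in limma). Leaving out each array in turn gave differences of -0.28 to -0.39. At 3 h the difference was -0.0051, and the interaction had an unadjusted p of 0.0017 and an adjusted p of 1.00.

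Fcgr1a, a receptor of macrophages for immunoglobulin G, was also among the 8 probe sets with the smallest p on the lower side. Its levels were 4.79, 4.57, 4.74 and 4.71 after water and 4.33, 4.53, 4.50 and 4.19 after saccharin, and the groups did not overlap (difference -0.31, adjusted p = 1.00 in limma). In the list of 13 markers of monocytes and other leukocytes, 2 had an unadjusted p under 0.05 (15.4%, against 3.06% of all probe sets). These were Ccr2 and Cd3d, a subunit of the T cell receptor complex (difference -0.18). Of the list 6 were above 0 (7 without C378) and the median was -0.01. Cd74, the invariant chain of antigen presentation, differed by -0.21 (95% interval -0.51 to 0.08). Of 51 chemokines and their receptors 26 were above 0 (33 without C378), and 5.88% had an unadjusted p under 0.05. Besides Ccr2 these were Ccl22 (-0.19) and Cxcl17 (-0.19), which attract T cells and myeloid cells. In microglia markers 3 of 12 were above 0 (3 without C378), with a median of -0.03, and Csf1r, the receptor for their growth factor, differed by -0.03 (95% interval -0.12 to 0.05).

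Red blood cell genes stood lower after saccharin in 7 of 7 measured, with a median of -0.13, and 0 were called. Their mean level per array was 5.70, 5.75, 5.55 and 5.73 after water and 5.48, 5.30, 5.89 and 5.43 after saccharin. Saccharin array C379 was the highest of all 8 and the other saccharin arrays were the lowest, and without C379 the median was -0.33. Hbb, a chain of haemoglobin, stood at 9.63, 9.78, 9.38 and 9.68 after water and at 9.17, 9.04, 9.87 and 9.37 after saccharin (difference -0.25, 95% interval -0.60 to 0.10), and Hbb-b1, another such chain, differed by -0.34 (unadjusted p = 0.0577 in limma). Their probe sets may share signal, as these genes are near copies. Alas2, the haem enzyme of red cells, differed by -0.23, and Ahsp, a chaperone of haemoglobin, by -0.13 (unadjusted p = 0.0382). The part of blood in the differences of leukocyte genes was not tested. In pieces of tissue, fewer cells of a type and less RNA per cell cannot be told apart.

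**Figure D5:**
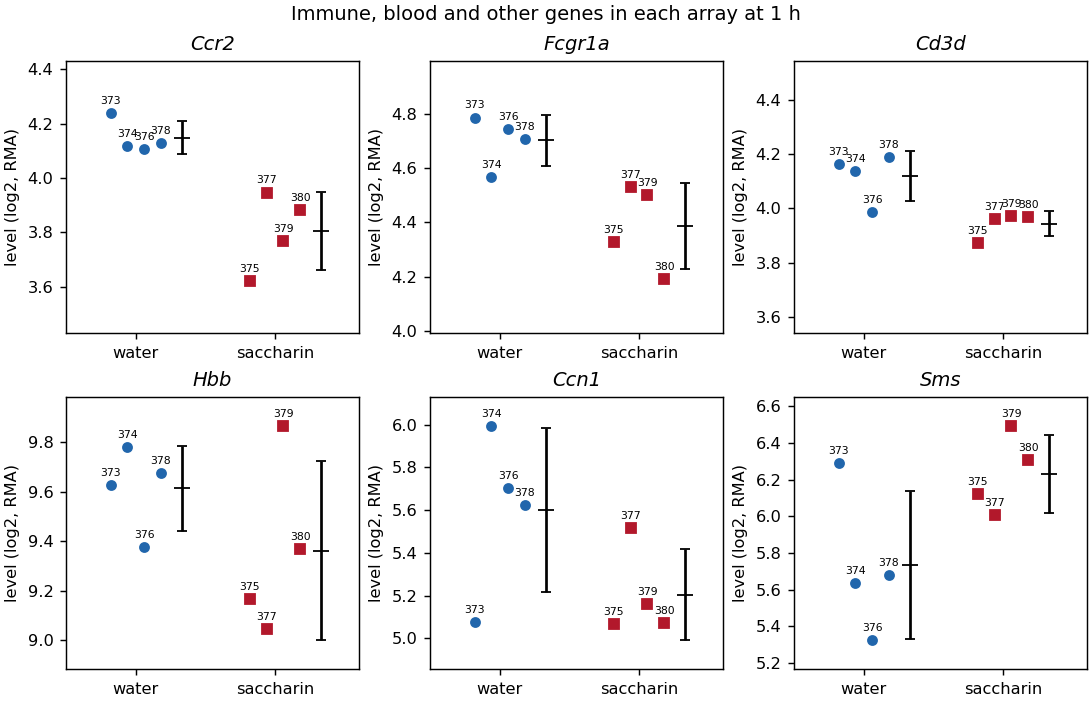
Log2 levels (RMA, vertical axes) of Ccr2, Fcgr1a, Cd3d, Hbb, Ccn1 and Sms (probe set 10850929) in the 4 water arrays (circles) and the 4 saccharin arrays (squares) at 1 h, with array numbers and the mean and SD of each group. The groups do not overlap for Ccr2, Fcgr1a and Cd3d, and C379 is the highest array for Hbb.

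Markers of other cell types gave 0 calls. Of 17 markers of the leptomeninges and fibroblasts 11 were above 0 (13 without C378), and 8 of 17 intervals lay inside a fold of 1.25. Slc6a13, a GABA and taurine transporter of the meninges, stood at 6.03, 5.91, 6.10 and 6.22 after water and at 6.16, 6.36, 6.23 and 6.59 after saccharin (difference 0.27, unadjusted p = 0.0327 in limma), while Ptgds, a prostaglandin synthase of the meninges, differed by 0.05 (95% interval -0.24 to 0.34). Astrocyte markers lay inside a fold of 1.25 in 10 of 10, oligodendrocyte markers in 11 of 11, endothelial and pericyte markers in 14 of 14, interneuron markers in 12 of 13 and striatal neuron markers in 11 of 12. Excitatory neuron markers were above 0 in 9 of 9, with a median of 0.03, and in 6 of 9 without C378.

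At the cut-off used by the study, an unadjusted p of at most 0.05 with a fold of at least 1.25, 13 probe sets (0.0855%) passed, 7 higher and 6 lower after saccharin. A further 13 had such a fold without such a p. The higher ones were Sms, Golga3, Olr1096, Slc18a1, Rpl13, Or2h1 and Comtd1, and the lower ones were Rpl37l1, Ccn1, Ces2a, Nat8f2, Ccr2 and Or2ak6c. All 13 had mean levels below the median of all probe sets. Among them were 3 olfactory receptors (Olr1096, Or2h1 and Or2ak6c), 2 ribosomal protein genes (Rpl13 and Rpl37l1) and 2 genes of monoamine handling (Slc18a1 and Comtd1).

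For 4 of these genes the array held further probe sets, and their values stand side by side here. Sms, the enzyme that makes spermine, differed by 0.50 in probe set 10850929, where water array C373 (6.29) lay within the range of saccharin (6.01 to 6.50). Its probe set 10933651, with the highest level, differed by 0.0034 (95% interval -0.15 to 0.15), while probe set 10765462, with the lowest level, differed by 0.62, the same way as the first (unadjusted p = 0.137 in limma). Rpl13, a protein of the large ribosomal subunit, differed by 0.38 in probe set 10808595 and by -0.31 to 0.19 in 5 others. Rpl37l1, of the same subunit, differed by -0.47 in probe set 10795105 and by -0.09 to 0.02 in 4 others. Olr1096, an olfactory receptor, differed by 0.45 in probe set 10894421 and by 0.0051 in probe set 10901182.

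Olfactory receptor genes, which the nose uses and which gave low signals in the cortex, held many of the small p-values. Of 1102 olfactory receptor genes 400 were above 0, with a median of -0.02 (470 without C378, and 529 with the quantile normalization repeated), and 80 had an unadjusted p under 0.05, which is 7.26% against 3.06% of all probe sets and 5.21% of the quartile with the lowest levels. Of 133 vomeronasal receptor genes 45 were above 0 (55 without C378), and 5 had an unadjusted p under 0.05, or 3.76%. Or10c1 stood at 3.89 to 4.20 after water and at 4.22 to 4.44 after saccharin (difference 0.25, unadjusted p = 0.0017 in limma), and Or4c11 at 2.81 to 3.05 and at 2.62 to 2.75 (difference -0.20, unadjusted p = 0.0011). Besides these, the probe sets with the smallest p on the higher side were those of Vom2r13, a vomeronasal receptor, Cyp2c13, a cytochrome P450, Or5ac25 and Or7a41, olfactory receptors, Sgcz, a sarcoglycan, Gfi1b, a transcription factor of red cell precursors, and Ccdc24. Their unadjusted p ran from 0.0016 for Vom2r13 to 0.0039 for Ccdc24 in limma. Sgcz stood at 5.22, 5.15, 4.95 and 5.17 after water and at 5.36, 5.20, 5.41 and 5.64 after saccharin. Saccharin array C377 overlapped the water arrays, and the difference was 0.28 (95% interval 0.11 to 0.46). Among those on the lower side was Nmur2, a receptor for neuromedin U, a peptide that reduces feeding, with a low signal of 2.83 to 3.12 after water and 2.62 to 2.87 after saccharin (difference -0.24, adjusted p = 1.00 in limma).

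The 26 taste receptor genes all had intervals inside a fold of 1.25, and 0 of them had an unadjusted p under 0.05. Tas1r3, a subunit of the sweet receptor that saccharin activates on the tongue, differed by -0.12 (95% interval -0.28 to 0.04), and Tas1r1, a subunit of the umami receptor, by 0.10 (95% interval -0.04 to 0.23).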

How the data were processed

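Total RNA of the gustatory cortex of 16 rats was hybridised to 16 arrays, of which the 8 of 1 h enter the comparison. The authors normalized the probe signals by quantiles over all chips and summarised them by RMA in the R package affy, and the deposited values are log2 levels, used as deposited. For affy, the sources used here give no version. The platform annotation names a single gene for 15209 of the 28826 probe sets, which were tested, several genes for 306 and none for 13311. Symbols follow RefSeq (GRCr8, matched for 15178). A model of 4 group means over 16 arrays was fitted in R 4.3.3 by limma 3.58.1, two-sided, with Benjamini-Hochberg adjustment over 15209 probe sets, and 95% intervals are the moderated ones. The exact permutation test used all 70 labellings of the 8 arrays. The fit was tested on simulated data.

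Named genes are, in each direction, the 8 probe sets of smallest p (given where a family or role is described), those past the cut-off of the study, the genes the study names, and of each list 2 members with the highest mean, the extreme members and those with an unadjusted p under 0.05. Btg2, which the study measured by PCR, had no probe set paired with a single gene and was not tested. The text gives a part of the named genes, and Fos, Egr1 and a few other members of lists were added for their roles. Members and lists were chosen with earlier results of these data known. Of several probe sets of a gene, the one with the highest mean stands in the lists. Replicates are rats, 1 array each, and their number limits the precision. Alternatives were the arrays in the fit, the prior, least squares, array weights, filters on level, scaling, the probe sets tested and leaving out each array. Promoter windows are the first 250 bases of RefSeq windows matched by Entrez identifier, 1 per gene.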

Additional observations from a re-analysis of the deposited data

Results flagged for a closer look

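In 226 groups of 4 arrays, those of the 113 probe sets named, the gap between an extreme array and its nearest neighbour was tested against the range of the group. It passed Dixon's 95% critical value in 11 of 226 groups, close to the 1 in 20 that chance gives. Many of these probe sets were also named for small p-values or extreme differences in the same arrays. Water array C373 was set apart for Ccr2, at 4.24, the highest of its group, and for Grik1, at 5.81, the lowest. Water array C378 was set apart for Ccdc68, at 4.03, the highest, and for Scg2 (8.66) and Cck (10.86), the lowest. Water array C376 was the highest for Rps12, at 8.42. Saccharin array C375 was set apart for Cd3d, at 3.87, the lowest, for Itgam, at 4.94, the highest, and for Gapdh in probe set 10870014, at 11.60. Saccharin array C379 stood apart for Calcb, at 3.63, and C380 for Or2ak6c, at 3.91, each the highest of its group. For Ccr2, Ccdc68, Cd3d, Grik1 and Or2ak6c the groups did not overlap with the array in place.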

How the results depend on the processing

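The count of adjusted calls was 0 under all 26 alternatives, the share of intervals inside a fold of 1.25 ran from 87.1% with all probe sets to 97.6% with those above the median level, and the share of variance that taste accounts for was 7.91% to 15.1% without passing the permutation test under any of 11 alternatives. The lowest adjusted p of Ccr2 was 0.237, without saccharin array C377. All differences of the probe sets past the cut-off and of those with the smallest p kept their sign.

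Counts moved with the probe sets tested. With probe sets above the median level, above log2 6 and all probe sets, the count at an unadjusted p under 0.05 was 132, 142 and 915, that past the cut-off of the study was 1, 2 and 113, and that of arrays without overlap was 74, 80 and 509. Fewer probe sets were tested in the first 2 settings and more in the last. The cut-off was passed by 5 with least squares and 20 with array weights. Leaving out 1 array gave 13 to 22 past the cut-off (22 without water array C374 or saccharin array C379, 21 without water array C378) and 228 to 735 without overlap, which is a weaker criterion for 3 arrays against 4. Under the alternatives 27 medians of lists moved by more than the spread among arrays and 1294 did not. The brightness shares and the intervals of lists from 8 arrays were added after seeing the data. No paired analysis was possible because the groups share no replicate number. With 4 arrays against 4, an exact permutation test of a single gene cannot go below p = 0.0286.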
